A study of Mus musculus with 60 samples.

Results

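The TRBV13 family comprises 3 of the variable gene segments from which the beta chain of the mouse T cell receptor is assembled, TRBV13-1, TRBV13-2 and TRBV13-3, known in the older nomenclature as V beta 8.3, V beta 8.2 and V beta 8.1. Members were chosen by the V label of each clonotype in the deposited repertoire tables. The family held 13981 of the 85775 TRB clonotypes listed for CD4+ T cells and 19915 of the 82447 listed for CD8+ T cells, in 3 of 28 and 3 of 26 TRBV segments. T cells of C57BL/6 donor mice (H-2b) were given together with T cell-depleted bone marrow of wild-type C57BL/6 mice to lethally irradiated wild-type BALB/c recipients (H-2d), a major histocompatibility mismatch that causes acute graft-versus-host disease, and the TCR chains of donor-type T cells were sequenced. T cell donors were wild type (WT), STAT3 deficient in T cells (STAT3ko, a floxed STAT3 allele deleted by Cre from the CD4 promoter, active in CD4+ and CD8+ lineages alike), or lacking PD-1 in addition to this STAT3 deletion (STAT3koPD-1ko). For each genotype and T cell type there was 1 library from before hematopoietic cell transplantation (HCT), made from spleen and titled naive, and there were 2 libraries each from liver and gut at day 6 after HCT, made from sorted H-2Kb+ TCRb+ cells pooled from 3 recipients. There were thus 15 CD4+ and 15 CD8+ libraries, of which 3 were from before HCT, 6 from liver and 6 from gut.

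The V segment encodes most of the beta chain that contacts the MHC molecule, and it forms the start of the third complementarity-determining region (CDR3), where V, D and J segments are joined with random trimming and addition of bases. The V beta 8 segments are among the most used of the mouse and are read together by the antibody F23.1. T cells with V beta 8 are known to respond to staphylococcal enterotoxin B, V beta 8.1 cells respond to the endogenous retroviral superantigen Mls-1a, and V beta 8.2 is the main beta chain of invariant natural killer T (iNKT) cells.

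The 3 germline segments lie close together on the plus strand of chromosome 6 in the mm10 assembly (GENCODE M21). Trbv13-1 is at chr6:41116007-41116468, Trbv13-2 at chr6:41121396-41121832 and Trbv13-3 at chr6:41130147-41130585, and each has 2 exons, a short leader exon and the V exon. Trbv13-1 and Trbv13-2 are 4927 bases apart with Trbv12-2 between them, and Trbv13-2 and Trbv13-3 are 8314 bases apart with the pseudogene Trbv12-3 between them. Over the last 291 coding bases of the V exon TRBV13-2 and TRBV13-3 were 91.8% identical, TRBV13-1 and TRBV13-2 were 88.7% identical, and TRBV13-1 and TRBV13-3 were 85.9% identical. The last 75 coding bases, at the 3′ end of the V exon, are shown because the CDR3 begins there. Capitals mark the 18 positions at which the members differ.

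TRBV13-1: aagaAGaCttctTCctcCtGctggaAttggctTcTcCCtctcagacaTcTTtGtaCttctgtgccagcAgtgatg
TRBV13-2: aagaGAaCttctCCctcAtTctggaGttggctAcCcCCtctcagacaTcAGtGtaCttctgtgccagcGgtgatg
TRBV13-3: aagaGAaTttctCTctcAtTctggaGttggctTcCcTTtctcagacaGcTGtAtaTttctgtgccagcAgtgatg

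The CDR3 takes up the last 16 of these bases, from the codon of the conserved cysteine. A single base in it differs between members, in the fourth codon, which encodes glycine in TRBV13-2 and serine in TRBV13-1 and TRBV13-3. The deposited clonotypes carried this mark: glycine stood at the fourth CDR3 residue in 97.1% of the TRBV13-2 frequency in the median CD4+ library and in 98.1% in the median CD8+ library. Serine stood there in 89.0% and 90.3% of the TRBV13-1 frequency and in 87.0% and 83.4% of the TRBV13-3 frequency. The CDR3 of TRBV13-1 and TRBV13-3 therefore starts with the same bases. In the tables every CDR3 amino acid sequence formed a single row with a single V label, so a CDR3 that was made from more than one V segment is listed under one of them, and the split between TRBV13-1 and TRBV13-3 is the less certain for it.

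Several libraries stood apart or shared clonotypes. The overlap of the family between libraries was taken as the sum, over its clonotypes, of the smaller of the frequencies within the family. Liver replicate 1 shared 41.4% to 55.5% of the CD4+ family and 39.9% to 56.9% of the CD8+ family with the library made before HCT from the same genotype. Liver replicate 2 shared 3.34% to 4.49% and 6.38% to 8.96% with it. Gut replicate 1 shared 17.7% to 23.0% and 18.5% to 25.4% with the library from before HCT, and 24.2% to 34.4% and 27.4% to 39.7% with liver replicate 1 of its genotype. Gut replicate 1 shared 24.0% to 30.3% and 32.7% to 39.9% with liver replicate 2, although the liver replicates shared 3.96% to 5.43% and 7.96% to 11.7% with each other. Libraries from before HCT of different genotypes shared 2.35% to 3.29% and 5.24% to 7.19%. Gut replicate 2 shared 2.49% to 4.97% and 8.11% to 11.1% with the library from before HCT, and its listed clonotypes held 47.8% to 51.5% of the TRB frequency in CD4+ and 53.2% to 58.0% in CD8+ cells, against 81.6% to 83.6% in CD4+ cells of gut replicate 1. Usage was therefore expressed as a percentage of the listed TRB frequency of the same library. The values are read fractions without counts, so that the depth behind each is unknown.

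In CD4+ T cells the TRBV13 family took a smaller part of the repertoire in the gut than in the liver or before HCT. The family total before HCT was 21.7% in WT, 24.6% in STAT3ko and 20.1% in STAT3koPD-1ko. In liver it ran from 17.6% over a median of 19.6% to 23.4%, and in gut from 12.3% over a median of 14.6% to 15.8%. Every gut library was below every liver library and every library from before HCT, while liver and pre-HCT values overlapped. The means were 22.2% ± 2.29 (SD, n = 3) before HCT, 19.9% ± 2.19 (SD, n = 6) in liver and 14.3% ± 1.42 (SD, n = 6) in gut. By the mean of log2 usage the gut was at 0.721 times the liver, a log2 difference of -0.47 (exact permutation test within genotypes, two-sided, p = 0.00926, the smallest its arrangements allow, adjusted p = 0.0357 over the 6 comparisons between sites in both T cell types). With the replicate number as a block this call was lost (exact permutation test, adjusted p = 0.0625), where the smallest possible p was 0.0312. Against the libraries from before HCT the log2 difference of the gut was -0.63 (exact permutation test, two-sided, p = 0.0119, again the smallest possible, adjusted p = 0.0357), and that of the liver was -0.16 (exact permutation test, p = 0.214, adjusted p = 0.257). As a share of all reads, rather than of the listed frequency, the log2 differences of the gut were -0.98 from liver and -1.17 from before HCT. In this setting the median log2 difference over the 21 segments tested was -0.96 from liver and -0.93 from before HCT.

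**Figure D1:**
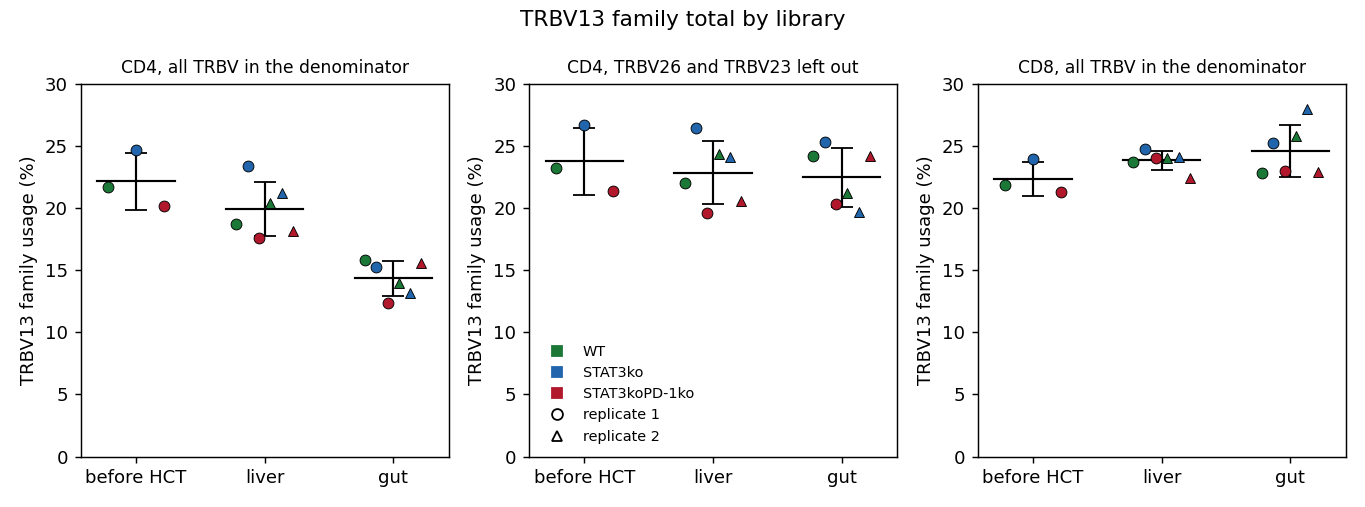
TRBV13 family usage, in percent of the listed TRB frequency, by site for CD4+ and CD8+ T cells. Points are libraries, with lines for the mean and SD. The middle panel takes TRBV26 and TRBV23 out of the CD4+ total. The 6 CD4+ gut libraries, at 12.3% to 15.8%, sit below the 6 liver libraries, at 17.6% to 23.4%, and the CD8+ groups overlap.

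The frequency of TRBV26 and TRBV23 moved with this difference. Together these 2 segments held 5.99% to 7.74% of the CD4+ listed frequency before HCT, 10.4% to 16.2% in liver and 33.2% to 39.6% in gut. With both taken out of the total, the family held 23.8% ± 2.69 (SD, n = 3) before HCT, 22.9% ± 2.57 (SD, n = 6) in liver and 22.5% ± 2.36 (SD, n = 6) in gut, and the log2 difference of the gut was -0.024 from liver and -0.082 from before HCT (exact permutation tests, adjusted p = 0.769 and 0.714). The lower share of the family among all listed TRB sequences was thus not seen among the sequences outside TRBV26 and TRBV23. Restricted to CDR3s that run from cysteine to phenylalanine or tryptophan, the log2 differences were -0.17 and -0.26, and neither call remained (exact permutation tests, adjusted p = 0.13 and 0.107). Such CDR3s made up 99.9% of the family's CD4+ clonotypes and 74.5% of those of other TRBV segments. Frequencies within a library sum to a fixed total, so a change in the family and the opposite change in the other segments cannot be told apart. Fewer T cells with a segment and less TCR mRNA per cell cannot be told apart either.

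TRBV13-2 showed the largest difference of the 3 members in CD4+ cells. Before HCT it held 5.64% in WT, 6.47% in STAT3ko and 6.48% in STAT3koPD-1ko. It ran from 4.71% over a median of 5.13% to 6.11% in liver and from 1.77% over a median of 3.28% to 4.06% in gut. No gut library reached the lowest liver library, and WT gut replicate 2 was the lowest of all. The mean fell from 5.33% ± 0.548 (SD, n = 6) in liver to 3.13% ± 0.899 (SD, n = 6) in gut, a log2 change of -0.80 ± 0.17 (SE, limma, adjusted p = 0.00109). From the libraries before HCT, at 6.20% ± 0.484 (SD, n = 3), it fell by 1.01 ± 0.19 on the log2 scale (SE, limma, adjusted p = 0.00023). Among CDR3s from cysteine to phenylalanine or tryptophan the fall from liver was 0.50 (limma, adjusted p = 0.0234), and without TRBV26 and TRBV23 the log2 differences were -0.36 from liver and -0.48 from before HCT (limma, adjusted p = 0.105 and 0.0507).

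TRBV13-3 was also lower in the CD4+ gut. Before HCT it held 6.32%, 6.30% and 5.32% in WT, STAT3ko and STAT3koPD-1ko. In liver it ran from 3.95% over a median of 5.21% to 6.23%, and in gut from 3.21% over a median of 3.72% to 4.59%, so that the lowest liver library, STAT3koPD-1ko replicate 1, lay within the gut range. The mean of 3.73% ± 0.4999 (SD, n = 6) in gut was lower than 5.29% ± 0.857 (SD, n = 6) in liver by 0.48 ± 0.12 on the log2 scale (SE, limma, adjusted p = 0.00287), and lower than 5.98% ± 0.571 (SD, n = 3) before HCT by 0.67 ± 0.14 (SE, limma, adjusted p = 0.00040). Neither call remained without TRBV26 and TRBV23, where the log2 differences were -0.05 from liver and -0.14 from before HCT (limma, adjusted p = 0.756 and 0.425), or among CDR3s from cysteine to phenylalanine or tryptophan, where they were -0.19 and -0.31 (limma, adjusted p = 0.172 and 0.0563).

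TRBV13-1 was the most used member and changed least. It held 9.76%, 11.9% and 8.32% before HCT in WT, STAT3ko and STAT3koPD-1ko. In liver it ran from 8.45% over a median of 8.93% to 11.1%, and in gut from 6.61% over a median of 7.53% to 8.53%. The highest gut library, WT replicate 1, lay just inside the liver range. Its mean of 7.48% ± 0.713 (SD, n = 6) in gut was below 9.30% ± 1.03 (SD, n = 6) in liver by 0.31 ± 0.11 on the log2 scale (SE, limma, adjusted p = 0.0152) and below 9.98% ± 1.78 (SD, n = 3) before HCT by 0.40 ± 0.13 (SE, limma, adjusted p = 0.0096). The difference from liver turned to 0.14 without TRBV26 and TRBV23 (limma, adjusted p = 0.298), and its call was lost without liver replicate 1 (adjusted p = 0.0578) and without gut replicate 1 (adjusted p = 0.0538) of the 3 genotypes. Among CDR3s from cysteine to phenylalanine or tryptophan it was -0.0075 (limma, adjusted p = 0.941). The difference from before HCT turned to 0.14 as well without TRBV26 and TRBV23 (adjusted p = 0.407), and it was -0.28 without the STAT3ko library from before HCT (adjusted p = 0.0909), the highest of the 3.

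All 3 members were thus called lower in gut than in liver, where 85.7% of the 21 CD4+ segments tested were called, 5 higher and 13 lower. The median log2 difference over the 21 segments was -0.46, close to that of TRBV13-3. With each listed clonotype counted once, 6 of 21 were called, 1 higher and 5 lower, and of the members TRBV13-2 alone, at -0.55 (limma, adjusted p = 0.0189), beside -0.039 for TRBV13-1 and -0.12 for TRBV13-3 (adjusted p = 0.693 and 0.125). Without TRBV26 and TRBV23 the median was -0.03 and 7 segments were called higher and 3 lower of 20. Against before HCT, 81% of the segments were called and again all 3 members were among those that fell, with a median log2 difference over the segments of -0.40. Between liver and before HCT 9.52% were called and none of the members was, with log2 differences of -0.09, -0.22 and -0.19 for TRBV13-1, TRBV13-2 and TRBV13-3 (limma, adjusted p = 0.57, 0.44 and 0.44).

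**Figure D2:**
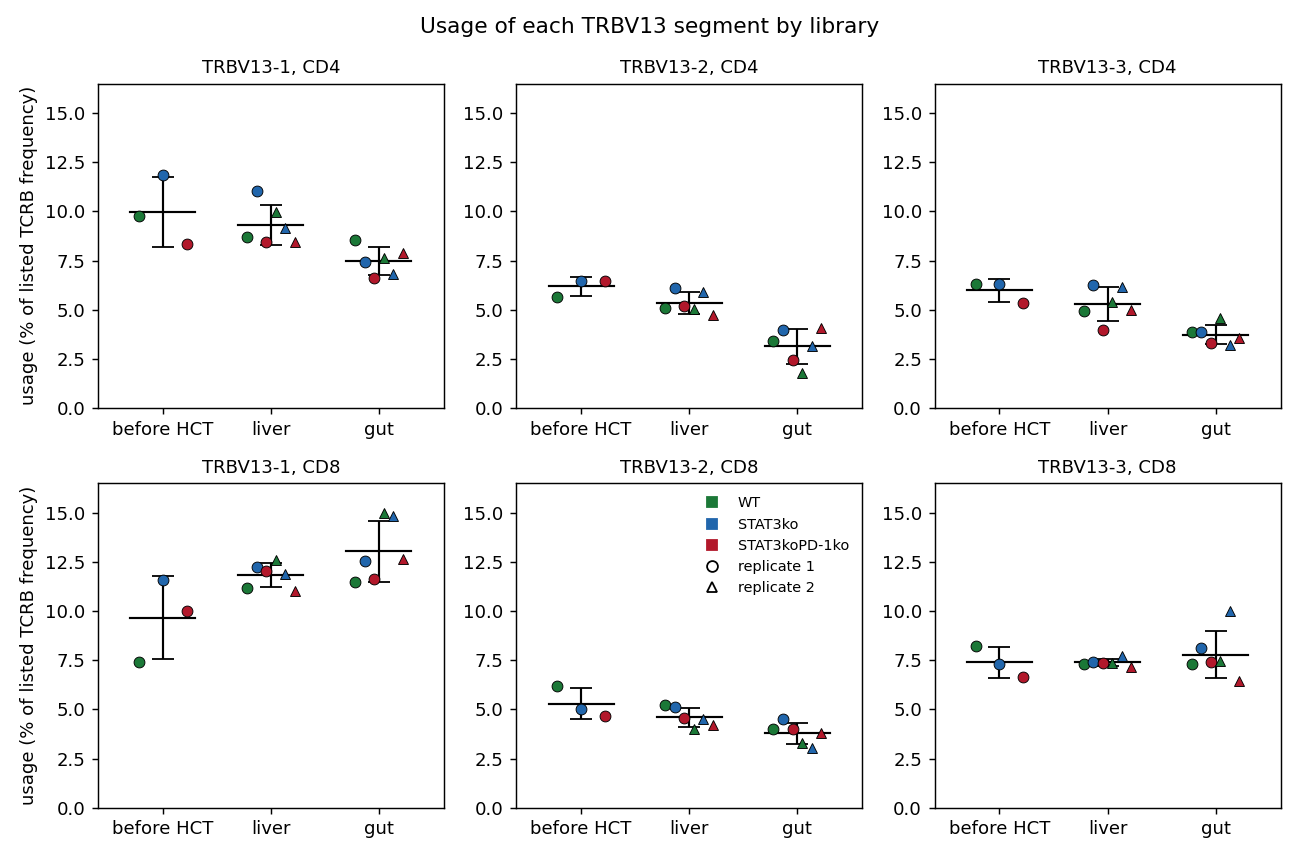
Usage of TRBV13-1, TRBV13-2 and TRBV13-3, in percent of the listed TRB frequency, in each library, grouped by site for CD4+ and CD8+ T cells, with lines for the mean and SD. TRBV13-2 reached 4.06% at most in the CD4+ gut libraries and 4.71% at least in the CD4+ liver libraries.

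In CD8+ T cells no difference in the family total between sites passed the test, while TRBV13-1 rose and TRBV13-2 fell from before HCT to gut. The total before HCT was 21.8% in WT, 23.9% in STAT3ko and 21.3% in STAT3koPD-1ko. It ran from 22.4% over a median of 24.0% to 24.8% in liver and from 22.8% over a median of 24.1% to 27.9% in gut. The groups overlapped, and the means were 22.4% ± 1.37 (SD, n = 3), 23.8% ± 0.777 (SD, n = 6) and 24.6% ± 2.08 (SD, n = 6). The log2 difference was 0.04 between gut and liver, 0.14 between gut and before HCT and 0.09 between liver and before HCT (exact permutation tests, adjusted p = 0.370, 0.196 and 0.0714). As a share of all reads, rather than of the listed frequency, the direction turned: gut was below liver by 0.40 on the log2 scale (exact permutation test within genotypes, p = 0.00926, adjusted p = 0.0238) and the difference from before HCT was -0.35 (exact permutation test, adjusted p = 0.229). The fall was general in this setting. Over the 18 segments tested the median log2 difference was -0.43 from liver, with 0 called higher and 8 lower, and -0.49 from before HCT. TRBV26 and TRBV23 held 0.888% to 2.57% of the CD8+ libraries.

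CD8+ TRBV13-2 fell in the gut. Before HCT it held 6.18%, 5.03% and 4.68% in WT, STAT3ko and STAT3koPD-1ko. It ran from 4.01% over a median of 4.54% to 5.21% in liver and from 3.06% over a median of 3.89% to 4.52% in gut. Every gut library was below every library from before HCT, whereas gut and liver overlapped. The gut mean of 3.77% ± 0.522 (SD, n = 6) was below 5.30% ± 0.783 (SD, n = 3) before HCT by 0.48 ± 0.13 on the log2 scale (SE, limma, adjusted p = 0.0115). It was below the liver mean of 4.60% ± 0.476 (SD, n = 6) by 0.28 ± 0.11 (SE, limma, adjusted p = 0.0493). The latter call sat at the threshold. It was lost without gut replicate 2 of the 3 genotypes (log2 difference -0.14, limma, adjusted p = 0.230) and without liver replicate 1 of the 3 genotypes (-0.17, limma, adjusted p = 0.311). It was also lost without any single library of these sets and without STAT3ko or STAT3koPD-1ko liver replicate 2 alone (limma, adjusted p = 0.071 to 0.123). Among the other settings it was lost with a pseudocount of 0.01 (limma, adjusted p = 0.0521), with all segments tested (0.0569), among CDR3s from cysteine to phenylalanine or tryptophan (0.0643), without TRBV26 and TRBV23 (0.065), with each clonotype counted once (0.0887) and with clonotypes of 3 or more libraries (0.105). It was kept with the replicate block (limma, adjusted p = 0.0152). The call against before HCT was lost without the WT library from before HCT, at -0.35 (limma, adjusted p = 0.0872).

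CD8+ TRBV13-1 rose from before HCT to the gut. It held 7.42%, 11.6% and 9.999% before HCT in WT, STAT3ko and STAT3koPD-1ko, the WT library being the lowest of the 15. In liver it ran from 11.02% over a median of 11.96% to 12.6%, and in gut from 11.5% over a median of 12.6% to 14.995%. The mean rose from 9.67% ± 2.10 (SD, n = 3) to 13.04% ± 1.54 (SD, n = 6) in gut, by 0.44 ± 0.12 on the log2 scale (SE, limma, adjusted p = 0.0115). Without the WT library from before HCT the rise was 0.26 (limma, adjusted p = 0.0872). As a share of all reads, rather than of the listed frequency, the log2 difference was -0.036, beside a median of -0.49 over the 18 segments tested. Liver, with a mean of 11.8% ± 0.621 (SD, n = 6), was not called different from gut (limma, log2 difference 0.13, adjusted p = 0.16), but was without gut replicate 1 of the 3 genotypes (0.26, adjusted p = 0.0461).

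CD8+ TRBV13-3 stayed close to the same level at each site. Its means were 7.39% ± 0.805 (SD, n = 3) before HCT, 7.40% ± 0.172 (SD, n = 6) in liver and 7.79% ± 1.21 (SD, n = 6) in gut. Its gut values ran from 6.42% to 9.9994%, the highest in STAT3ko gut replicate 2, and its log2 differences were 0.01, 0.07 and 0.06 for liver against before HCT, gut against before HCT and gut against liver (limma, adjusted p = 0.99, 0.51 and 0.52). Of the 18 CD8+ segments tested, 50% were called between gut and before HCT, where 1 member rose and 1 fell. Between gut and liver 38.9% were called, TRBV13-2 among them. This background moved with the setting: of 18 segments limma called 7, but 10 with the replicate number as a block, TRBV13-2 again among them, and 0 without liver replicate 1 of the 3 genotypes, with 4 at an unadjusted p below 0.05. Between liver and before HCT limma called 0 of 18 segments (0%), with 2 at an unadjusted p below 0.05.

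**Figure D3:**
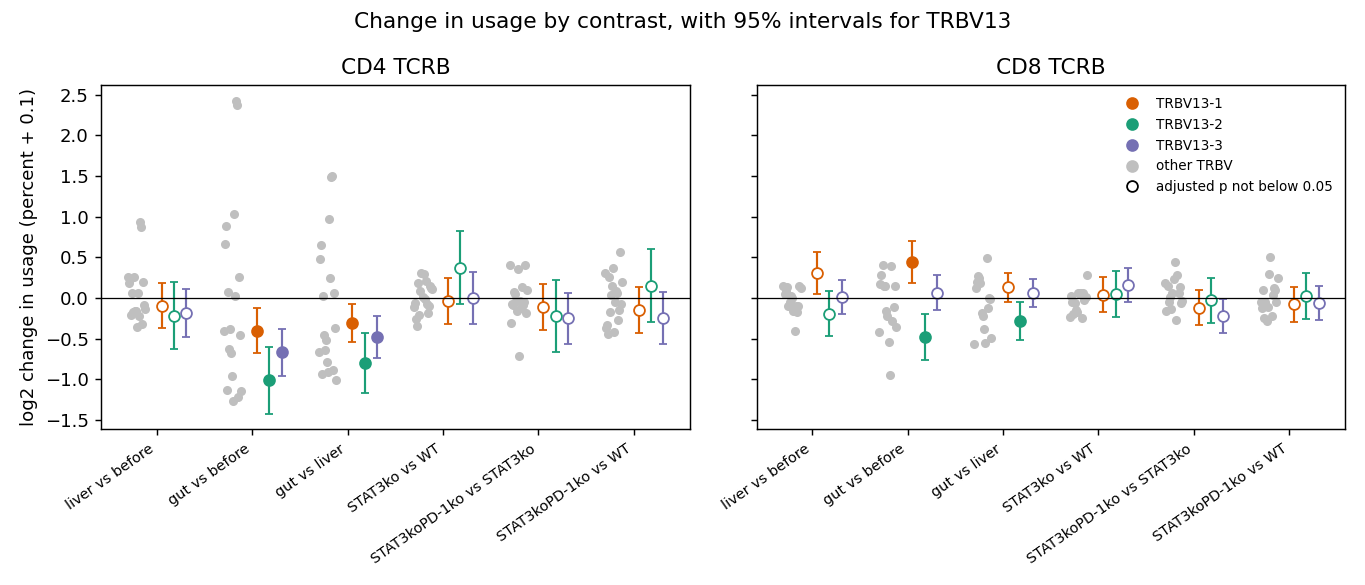
Log2 differences in usage of the 3 members for each contrast between sites and between genotypes, in CD4+ and CD8+ T cells, from limma, with 95% intervals. Grey points are the other TRBV segments and open circles were not called. TRBV13-2 was lower in gut than in liver in both T cell types, by 0.80 in CD4+ and 0.28 in CD8+ cells.

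The most used member was nearly always the same, while the least used was fixed in CD8+ cells only. TRBV13-1 was the highest in 15 of 15 CD4+ libraries and in 14 of 15 CD8+ libraries, the exception being the WT library from before HCT, where TRBV13-3 was higher. TRBV13-2 was the lowest in 15 of 15 CD8+ libraries. In CD4+ cells TRBV13-2 was the lowest in 9 libraries and TRBV13-3 in 6, and their ranges overlapped at each site. TRBV13-2 as a percentage of the family in CD4+ cells was 28.1% ± 3.51 (SD, n = 3) before HCT, 26.8% ± 1.67 (SD, n = 6) in liver and 21.6% ± 5.10 (SD, n = 6) in gut, where it ran from 12.6% in WT gut replicate 2 to 26.1%. In CD8+ cells it was 23.8% ± 3.94 (SD, n = 3), 19.3% ± 1.81 (SD, n = 6) and 15.5% ± 2.90 (SD, n = 6). The differences between gut and liver were -5.18 points in CD4+ and -3.80 points in CD8+ cells, and neither passed the adjusted threshold (exact permutation tests within genotypes, p = 0.0278 each, adjusted p = 0.0536). Between gut and before HCT they were -6.50 and -8.24 points (exact permutation tests, adjusted p = 0.129 and 0.0536).

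Because the fourth CDR3 codon tells TRBV13-2 from the other members, the family was also counted without its V labels, by the first 15 bases of the germline CDR3. Of the clonotypes that began with the glycine form, 1913 in CD4+ and 2507 in CD8+ cells, 99.9% and 99.7% were labelled TRBV13-2. Of those that began with the serine form, 2712 and 5189, 61.0% and 65.4% were labelled TRBV13-1 and 38.7% and 34.5% TRBV13-3. No other Trbv transcript of the annotation holds this start. The count covers the part of the family whose V end was little trimmed, a mean of 6.39% ± 0.946 (SD, n = 6) of the CD4+ listed frequency in liver and 3.73% ± 0.820 (SD, n = 6) in gut, beside the family totals of 19.9% and 14.3%. These joins together were lower in the CD4+ gut than in liver by 0.80 on the log2 scale (exact permutation test within genotypes, p = 0.00926, adjusted p = 0.0357) and lower than before HCT by 0.99 (exact permutation test, p = 0.0119, adjusted p = 0.0357). Their total was again the listed frequency, with TRBV26 and TRBV23 in it, and this count was not repeated without these segments. The glycine form as a part of the joins with either start differed by -2.99 points between CD4+ gut and liver (exact permutation test, adjusted p = 0.722) and by -3.89 points between CD8+ gut and liver (exact permutation test, adjusted p = 0.111).

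No difference between donor genotypes in the family passed a test, and the exact tests of its total could not pass. In CD4+ cells of liver and gut the log2 difference of the family total was 0.06 for STAT3ko against WT, -0.18 for STAT3koPD-1ko against STAT3ko and -0.12 for STAT3koPD-1ko against WT. In CD8+ cells the differences were 0.08, -0.14 and -0.06 (exact permutation tests within sites, adjusted p = 0.333 to 0.556 in both T cell types). With 4 libraries a genotype the smallest p of this design is 0.0556, and the CD8+ difference of STAT3koPD-1ko from STAT3ko was at that value (exact permutation test, adjusted p = 0.333). In it, both STAT3koPD-1ko libraries were below both STAT3ko libraries in liver, at 24.0% and 22.4% against 24.8% and 24.1%, and in gut, at 23.0% and 22.9% against 25.2% and 27.9%. Counted by the germline start of the CDR3, this difference was 0.014. Limma called 0 of 21 CD4+ segments (0%) in each of the 3 genotype comparisons, with 0, 4 and 6 at an unadjusted p below 0.05. In CD8+ cells it called 0 of 18 (0%) for STAT3ko against WT, with 1 at an unadjusted p below 0.05, 0 of 18 for STAT3koPD-1ko against STAT3ko, with 3, or 1 with the replicate number as a block, which was no member, and 5.56% for STAT3koPD-1ko against WT, which was not a member. The widest member difference was that of CD4+ TRBV13-2 between STAT3ko and WT, at 0.37 on the log2 scale with an interval from -0.08 to 0.82.

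The CDR3s of the family were of similar mean length at each site, at 13.8 ± 0.0293 (SD, n = 3) residues before HCT, 13.8 ± 0.0840 (SD, n = 6) in liver and 13.6 ± 0.204 (SD, n = 6) in gut for CD4+ cells. The gut replicates differed in this, with 13.74 to 13.76 residues in replicate 1 and 13.35 to 13.40 in replicate 2. Over the other TRBV segments the CD4+ mean was 16.1 residues in liver and 19.8 in gut. In CD8+ cells the family's mean was 13.2 residues at each site, with 13.23 to 13.31 residues in gut replicate 1 and 12.83 to 13.25 in gut replicate 2. Without gut replicate 1 of the 3 genotypes the gut was below the liver by 0.37 residues in CD4+ and 0.21 residues in CD8+ cells (exact permutation tests within genotypes, p = 0.037 each, the smallest possible there, adjusted p = 0.111). The J segment cluster TRBJ2 took 66.0% ± 4.31 (SD, n = 3), 65.7% ± 1.27 (SD, n = 6) and 62.1% ± 3.49 (SD, n = 6) of the family in CD4+ cells before HCT, in liver and in gut. Neither CDR3 length (exact permutation tests, adjusted p = 0.68 to 0.99) nor the TRBJ2 share (exact permutation tests, adjusted p = 0.44 to 0.80) differed between sites by the tests.

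J segments were used unequally by the members. TRBJ2-7 was paired with a median of 17.7% of the family over the 15 CD4+ libraries and 26.2% over the 15 CD8+ libraries, beside 18.2% and 25.1% for the other TRBV segments. TRBJ1-1 held a median of 19.7% of CD8+ TRBV13-1, against 10.8% of TRBV13-2 and 12.4% of the other TRBV segments. TRBJ2-5 held 11.1% of CD8+ TRBV13-2, against 6.24% of TRBV13-1 and 6.46% of TRBV13-3. TRBD1 was assigned to a median of 46.9% of the family in CD4+ and 36.7% in CD8+ cells, and TRBD2 to 23.6% and 24.6%. For the other TRBV segments the medians were 41.3% and 42.3% for TRBD1 and 28.3% and 28.6% for TRBD2.

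The effective number of clonotypes, read as how many clonotypes of equal size would make up a repertoire as uneven, varied widely between libraries. In CD4+ cells it was 681 ± 158 (SD, n = 3) before HCT, 1045 ± 323 (SD, n = 6) in liver and 893 ± 706 (SD, n = 6) in gut. The gut replicates split, with 947 to 1803 in replicate 1 and 139 to 573 in replicate 2. The same split was present in CD8+ cells, with 2738 to 2911 in gut replicate 1 and 540 to 1161 in gut replicate 2. No difference between sites passed (exact permutation tests, adjusted p = 0.14 to 0.90). The whole repertoire showed it too, with effective numbers of 8594 to 14627 against 1139 to 4320 in CD4+ and 10845 to 11558 against 2985 to 5192 in CD8+ cells. Listed clonotypes held far less of the frequency in gut replicate 2, and the part of this in the split was not tested.

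**Figure D4:**
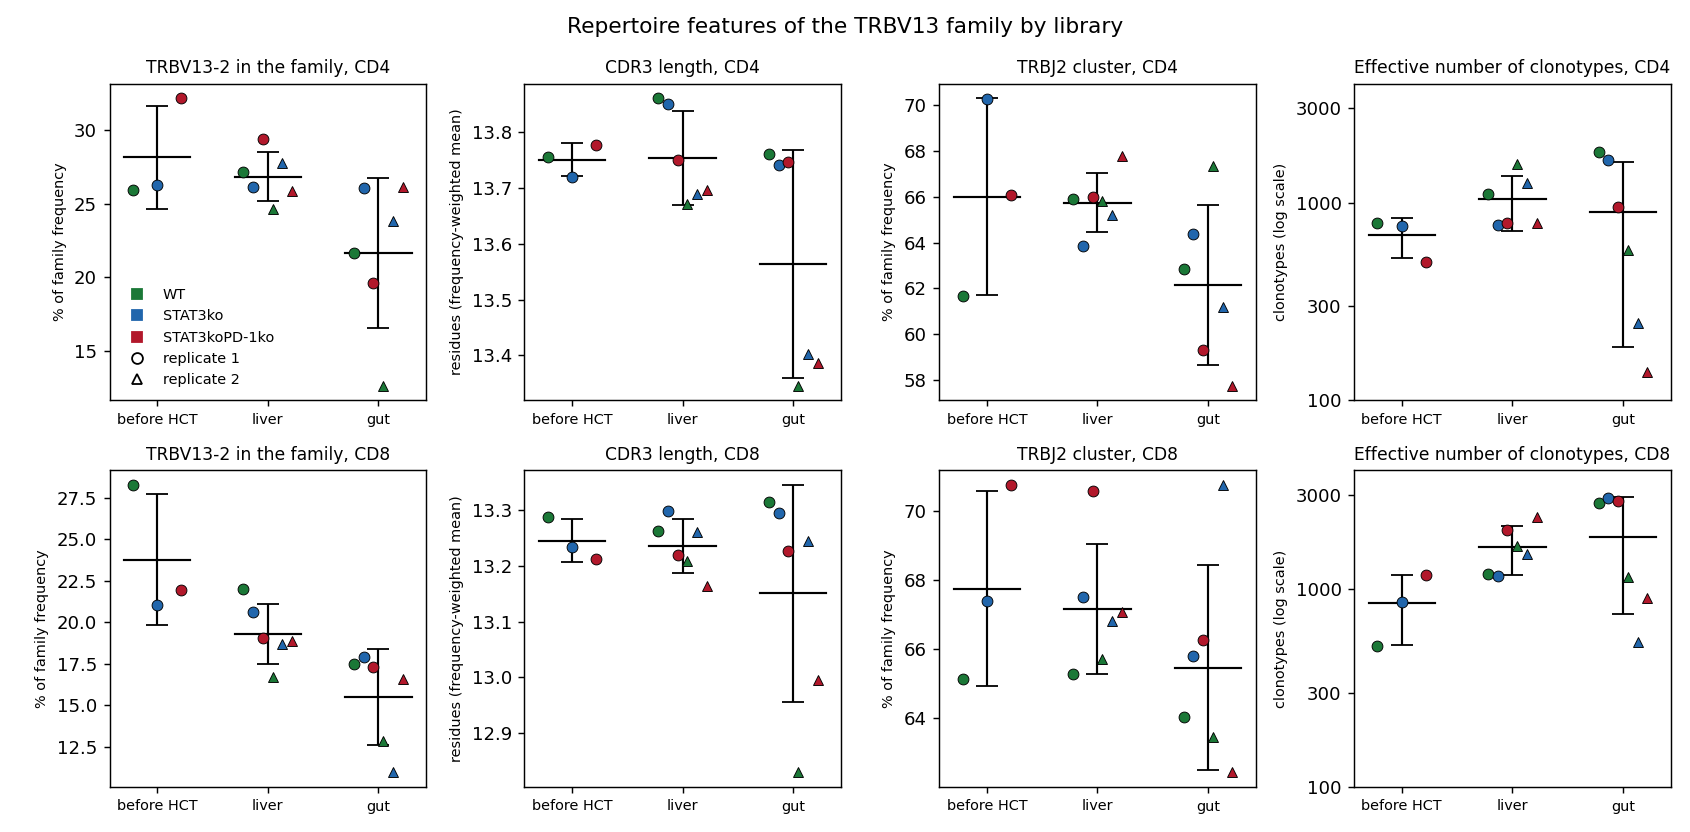
CDR3 length in residues, TRBJ2 share in percent, TRBV13-2 share of the family in percent and effective number of clonotypes (log axis) of the TRBV13 family by site. Points are libraries, with lines for the mean and SD. The effective number ran from 139 to 1803 in the CD4+ gut libraries.

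Few clonotypes were common to all libraries, in the family and outside it. Of the CD4+ clonotypes 2 of 5340 with TRBV13-1, 0 of 4975 with TRBV13-2 and 1 of 3666 with TRBV13-3 were listed in all 15 libraries. In CD8+ cells 26 of 7806, 6 of 5390 and 7 of 6719 were. Of the clonotypes with other TRBV segments 57 of 71794 in CD4+ and 150 of 62532 in CD8+ cells were listed in all 15. The sharing of a clonotype went with the number of its bases that match neither germline V nor J. Among CD8+ family clonotypes this number had a median of 10 in the 12004 listed in 1 or 2 libraries, 9 in the 6316 listed in 3 to 5, 7 in the 1341 listed in 6 to 11 and 5 in the 240 listed in 12 to 15. In CD4+ cells the medians were 10, 9, 8 and 8, the last over 43 clonotypes. The median CDR3 length fell from 14 to 13 residues in CD4+ and from 14 to 12 residues in CD8+ cells along the same classes.

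The CDR3 of the most frequent clonotype of each member listed in all 15 CD8+ libraries, and of those of the 2 members that had such a clonotype in CD4+ cells, is shown because its amino acid sequence was listed at every site and in every genotype. Each row holds 1 nucleotide sequence for a CDR3 amino acid sequence, so the values are those of the amino acid sequence and the printed bases need not have been the same in each library. Capitals mark bases that match neither germline V nor J.

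CD8+ TRBV13-1 TRBJ2-3: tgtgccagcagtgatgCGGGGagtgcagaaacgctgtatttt
CD8+ TRBV13-2 TRBJ2-5: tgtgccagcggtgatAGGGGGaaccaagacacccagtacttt
CD8+ TRBV13-3 TRBJ2-7: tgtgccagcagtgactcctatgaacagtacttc
CD4+ TRBV13-1 TRBJ1-1: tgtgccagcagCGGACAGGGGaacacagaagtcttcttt
CD4+ TRBV13-3 TRBJ2-1: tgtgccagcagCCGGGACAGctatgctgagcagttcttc

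The CD8+ TRBV13-3 join printed had 0 bases outside the germline V and J ends and a mean of 0.0465% of all reads of a library over the 15 libraries, the scale of all single clonotype values here. The CD8+ TRBV13-2 join ran from 0.0164% to 0.0694% and was above 0.01% in 12 of 12 day 6 libraries. The CD8+ TRBV13-1 join had a mean of 0.0595% and its highest value, 0.325%, in the STAT3ko library from before HCT. The CD4+ TRBV13-3 join held 0.0114% to 0.0593% before HCT and reached 0.01% at most in gut. All clonotypes of the family listed in all 15 libraries together held a mean of 0.0355% of all reads in CD4+ cells and 1.003% in CD8+ cells.

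Clonotypes that were absent or below 0.001% before HCT in their genotype and above 0.01% at day 6, of all reads of a library, were counted as expanded, after the study's rule for host-reactive clones. The family had 31 to 59 such CD4+ clonotypes in liver replicate 1, 356 to 448 in liver replicate 2, 81 to 145 in gut replicate 1 and 141 to 158 in gut replicate 2. In CD8+ cells there were 67 to 116, 443 to 473, 151 to 242 and 170 to 282. The low counts in liver replicate 1 stand beside its large overlap with the libraries from before HCT. As a share of all expanded CD4+ clonotypes the family made up 18.02% to 25.7% in liver and 12.3% to 16.6% in gut. The share of the family among listed CD4+ clonotypes was 12.99% to 16.3% in liver and 11.7% to 14.7% in gut. Expanded clonotypes are chosen by their frequency, so a count of all listed clonotypes is not a like background. Of the listed CD4+ frequency the family held 17.6% to 23.4% in liver and 12.3% to 15.8% in gut. In CD8+ cells the family made up 23.6% to 28.2% of expanded clonotypes in liver and 20.3% to 27.4% in gut, beside 23.4% to 25.0% and 22.2% to 24.9% of the listed ones.

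For each member, the CD4+ clonotype is shown that was above 0.01% in the most day 6 libraries among those with a mean below 0.001% over the 3 libraries before HCT, which is another rule than that of the counts above, to show how far such a CDR3 amino acid sequence was shared between libraries, again with the 1 nucleotide sequence its row holds. Capitals again mark bases outside germline V and J.

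CD4+ TRBV13-1 TRBJ1-1: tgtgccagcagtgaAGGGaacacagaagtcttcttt
CD4+ TRBV13-2 TRBJ2-1: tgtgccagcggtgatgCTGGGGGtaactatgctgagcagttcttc
CD4+ TRBV13-3 TRBJ2-7: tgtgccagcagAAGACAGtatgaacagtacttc

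None of these joins was general to the day 6 libraries. The TRBV13-1 and TRBV13-3 joins were above 0.01% in 4 of 12 libraries each and the TRBV13-2 join in 3 of 12. The latter were the liver replicate 2 libraries, at 0.0393% in WT, 0.0904% in STAT3ko and 0.0106% in STAT3koPD-1ko. In the STAT3ko library from before HCT the TRBV13-1 join was at 0.00281% and the TRBV13-2 join at 0.00234%, so in that genotype neither counts as expanded by the rule above. The TRBV13-3 join reached 0.115% in WT gut replicate 2.

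Usage of the CD4+ family total over the 15 libraries rose and fell most closely with TRBV5 (Pearson r = 0.77 of log2 usage) and TRBV14 (r = 0.73) among the other segments, and most oppositely to TRBV26 (r = -0.85) and TRBV23 (r = -0.84). In CD8+ cells the highest coefficients were those of TRBV16 (r = 0.49) and TRBV4 (r = 0.35) and the lowest those of TRBV2 (r = -0.82) and TRBV29 (r = -0.63). These coefficients over 15 libraries describe libraries that share a denominator, donors and, in part, clonotypes.

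Since TRBV13-2 is the usual beta chain of iNKT cells, the TCR alpha libraries of the same groups were searched for the invariant joins of unconventional T cells. The iNKT-type alpha chain held 0% to 0.00557% of the TCR alpha frequency in CD4+ cells before HCT, 0.00442% to 0.0375% in liver and 0% to 0.0409% in gut. In CD8+ cells it reached 0.0551% at most. The alpha chain of mucosal-associated invariant T cells reached 0.00558% in CD4+ and 0.0620% in CD8+ libraries. TRBV13-2 held 1.77% to 6.48% of the listed TRB frequency in the CD4+ libraries. Alpha and beta chains were not paired, and the part of TRBV13-2 from iNKT cells was not tested.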

How the data were processed

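The authors made TCR libraries with a SMARTer mouse TCR profiling kit, sequenced them on a MiSeq, called clonotypes with MiXCR and merged libraries with VDJtools. The deposited values are fractions of reads per clonotype in each library, with no counts, and the labels name mm10. Rows were keyed on the CDR3 amino acid sequence, with 1 V label each. Of the libraries joined, 18, each table keeps clonotypes found in at least 2, and 3 libraries are not analysed here. TRB rows were summed by V segment and divided by the listed TRB total. Segments whose usage averaged 0.5% or more were tested as log2(percent + 0.1) with limma 3.58.1 in R 4.3.3, with site and genotype in the model and Benjamini-Hochberg adjustment over all segments of a T cell type. Family totals and CDR3 features were tested with two-sided exact permutation tests, within genotypes or sites where the design allowed it. Adjusted p below 0.05 was called. Germline sequences came from the M21 transcripts of the reference. Tests were tried on simulated data.

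Members, lists and tests were chosen with earlier results of these data known. Other segments were named as the 2 of highest and the 2 of lowest Pearson r, and clonotypes as the most frequent on average in all 15 libraries and the one that rose in most day 6 libraries. Day 6 libraries were pools of recipients, so p-values measure the spread between libraries, which may be technical. The tests between sites also take libraries as independent, which those that shared many clonotypes may not be. Deviations of liver and gut libraries of the same replicate number were correlated at r = 0.29, 0.13 and 0.30 in CD8+ cells. In CD4+ cells the values were r = 0.01, 0.02 and 0.18, in the order WT, STAT3ko and STAT3koPD-1ko in both. Whether the numbers pair liver and gut was not tested. The study's methods mention batches that the labels do not tie to replicates. Depth is unknown, so no counting interval is given.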

Additional observations from a re-analysis of the deposited data

How the results depend on the processing

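Of 1480 values under other settings 1411 kept their side of the threshold, 58 lost a call, 7 gained one and 4 reversed a value called in either fit. Most of the results were uncalled in the main fit, so these counts do not measure how often a call was kept. Among the 1411 were 96 values, uncalled in both fits, that changed sign. Leaving out gut replicate 1 of all genotypes and the count by germline start were chosen after seeing the data.

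The CD4+ family total, gut against before HCT (main log2 difference -0.63), lost its call without TRBV26 and TRBV23 (-0.082), with CDR3s from cysteine to phenylalanine or tryptophan (-0.26), without gut replicate 2 (-0.62) and without gut replicate 1 (-0.64). Gut against liver (-0.47) lost it in the same order at -0.024, -0.17, -0.46 and -0.48, and without liver replicate 1 at -0.48. Without a gut replicate the smallest exact p was 0.1 against before HCT and 0.037 against liver, so neither call could pass there. Without liver replicate 1 the smallest exact p of gut against liver was 0.037 as well. Leaving out single libraries gave -0.70 to -0.55 and -0.53 to -0.42, with exact permutation adjusted p up to 0.107 and 0.0556, where fewer arrangements raise the smallest p. The first call was lost without any of the 9 libraries and the second without any gut library or either STAT3koPD-1ko liver library. With the replicate block, pairing liver and gut by number, the gut against liver difference stayed -0.47 with an adjusted p of 0.0625, since 0.0312 is the smallest exact p of that design, and the block changed no other call on totals, shares or CDR3 features. As a share of all reads the CD8+ total, gut against liver, reversed to -0.40 (exact permutation test, adjusted p = 0.0238). The median over the 18 CD8+ segments was -0.43 in that setting.

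TRBV13-2 as a share of the family passed when each clonotype was counted once, at -7.57 points (CD4+ gut against before HCT), -6.70 (CD4+ gut against liver) and -4.80 (CD8+ gut against before HCT). Leaving out single libraries gave -6.70 to -3.67 (CD4+ gut against liver), -9.59 to -5.98 (CD8+ gut against before HCT) and -4.96 to -2.64 (CD8+ gut against liver), passing in each without STAT3ko gut replicate 1.

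Counts of called CD4+ segments fell, gut against liver, from 18 to 9 among CDR3s from cysteine to phenylalanine or tryptophan, 10 without TRBV26 and TRBV23 and 6 with clonotypes counted once, and, gut against before HCT, from 17 to 11 and 10 under the first 2 of these. CD8+ counts, gut against liver, went from 7 to 3 with clonotypes counted once, 2 with clonotypes of 3 or more libraries and 0 without liver replicate 1. Single libraries aside, counts in the genotype and liver against before HCT comparisons stayed between 0 and 3.

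For single members, CD4+ TRBV13-1 reversed to 0.14 in both gut contrasts without TRBV26 and TRBV23, and CD8+ TRBV13-1, gut against before HCT, to -0.036 as a share of all reads. CD4+ TRBV13-2 and TRBV13-3 kept their gut calls without any single library. The effective number changed sign without gut replicate 2, to 1.08 and 0.49 in CD4+ cells (log2, gut against before HCT and against liver) and 0.83 in CD8+ cells (gut against liver). Without counts, depth limits cannot be given.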
